A study of Mus musculus with 35 samples.

Results

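CFAE is the chemical cocktail C6FAE with the compound written 6 left out. Chromatin accessibility of mouse embryonic fibroblasts (MEFs, the connective-tissue cells from which chemical reprogramming starts) was measured under both cocktails by ATAC-seq, an assay in which a transposase inserts sequencing adapters where DNA is open. The 4 libraries compared, 2 of C6FAE and 2 of CFAE, were chosen by their treatment labels from the 14 ATAC-seq libraries and 35 samples of the series. Accessibility was compared over all 36431 regions of the deposited ATAC-seq table, which has 1 column for each of 7 treatments.

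Both groups were MEFs on day 4 of the reprogramming process, and both received CHIR99021 (C), an inhibitor of the kinase GSK3, Forskolin (F), which raises cyclic AMP, AM580 (A), an agonist of retinoic acid receptors, and EPZ004777 (E), an inhibitor of the histone methyltransferase DOT1L. C6FAE also contained compound 6, which the study names RepSox, an inhibitor of the TGF-beta type I receptor ALK5. The other ATAC-seq treatments were 6FAE, C6AE, AE, Basal and Control. By its letters AE held AM580 and EPZ004777 alone, and the sources used here do not describe Basal. The study's methods call the C6FAE libraries biological replicates and do not say so of CFAE, and the labels do not name separate cultures, so the spread between the CFAE libraries may be technical. The cell type could not be checked against marker genes, because the positions, which the submitters' processing notes place on mm9, were not joined to genes here.

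As background, TGF-beta ligands bring together type II and type I receptor kinases, and ALK5 then phosphorylates the transcription factors SMAD2 and SMAD3. In fibroblasts this pathway drives matrix and contractile genes, and inhibitors of ALK5 are a common part of cocktails that convert fibroblasts into other cell types. ATAC-seq does not read SMAD activity itself. It reads which stretches of DNA are open, averaged over the cells of a sample, so fewer cells with an open region and a weaker signal in every cell cannot be told apart.

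The C6FAE libraries held 7800792 and 5215704 tags and the CFAE libraries 5815694 and 6675517. The peak lists had been called at a permissive threshold and held 266306 and 477218 peaks in C6FAE and 516461 and 191181 in CFAE. The length of a list did not follow the treatment, since the shallower library of each treatment had the longer list. Lists of equal size, the 20000 peaks of each library with the highest −log10 p, were therefore compared below. Coverage was low at most regions: the median pileup of the best listed peak in a region was 5.03 and 3.00 tags in the C6FAE libraries and 3.35 and 4.67 tags in the CFAE libraries. A pileup is the depth of coverage by tags extended to 250 bp, not the number of reads in the region.

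Most regions were open to a similar degree with and without compound 6. The median region had an RPKM (reads per kilobase of region, scaled to the mapped reads of the library) of 17.7 in C6FAE and 18.5 in CFAE. On the scale of log2(RPKM + 1), 33018 of 36431 regions, or 90.6%, lay within 2-fold of each other in the merged columns. The median difference, C6FAE minus CFAE, was −0.05, and the middle part of the regions, between the quartiles, lay from −0.37 to 0.25. Across regions, which are not independent replicates, the columns had a Pearson correlation of 0.693.

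Regions beyond 2-fold lay on both sides. In 1357 regions (3.72%) C6FAE was at least 2-fold higher, and in 2056 regions (5.64%) it was at least 2-fold lower. Of the 3413 regions beyond 2-fold, 39.8% were higher in C6FAE, with a 95% Wilson interval of 38.1 to 41.4% that covers only the number of regions. The balance depended on how the columns were scaled. Subtracting the column median from each treatment's values left 1559 regions (4.28%) higher and 1765 (4.84%) lower, and the median difference turned to 0.01. After quantile normalization 50.6% of the regions beyond 2-fold were higher in C6FAE. All 1357 regions that were higher as deposited stayed higher after centring, 1765 of the 2056 lower regions stayed lower, and 202 regions were higher only after centring. The table has 1 merged column for each treatment, so no region could be tested against replicate error.

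**Figure D1:**
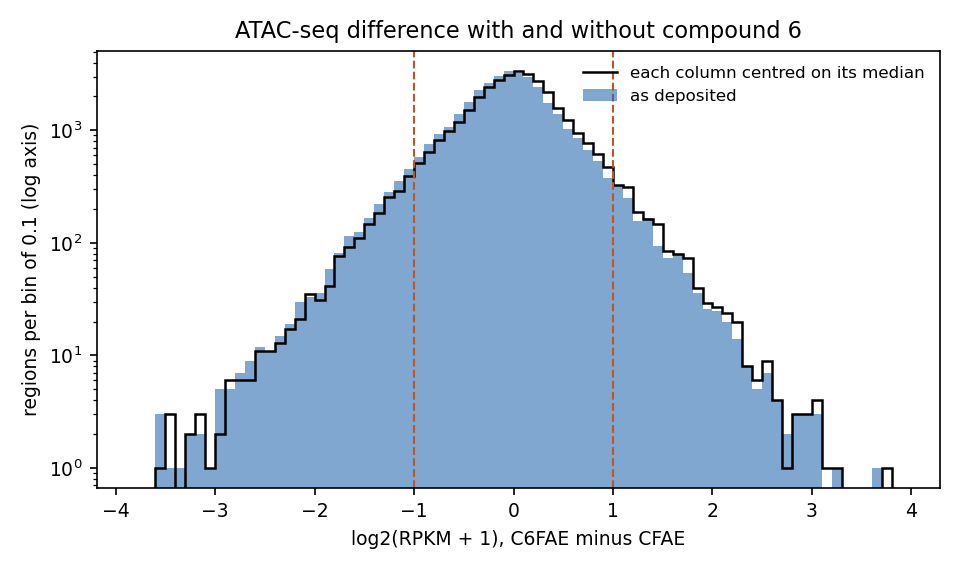
Number of regions (log axis) by the difference of log2(RPKM + 1), C6FAE minus CFAE, in bins of 0.1, for the columns as deposited (filled) and centred on their medians (line). The dashed lines mark 2-fold, which 1357 regions passed upward and 2056 downward as deposited.

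Pairs of the other treatments give a measure of scale, although pairs that have a column in common are not independent. Among the 21 pairs of the 7 merged columns, C6FAE and CFAE had the second fewest regions beyond 2-fold after centring, 3324. The pair with fewer was CFAE with 6FAE, at 2945, and C6FAE with 6FAE, which differ in CHIR99021, came next with 3713. Leaving out Forskolin went with more regions beyond 2-fold, 5323 between C6FAE and C6AE. The pair farthest apart was C6FAE with Control, at 7840 regions. These counts have no replicate error. Depth also differed between the columns. The C6AE libraries held 5581464 and 3346418 tags, the Control libraries 3800049 and 4798705, and the 6FAE libraries 4960248 and 8764791. The part of depth in these counts was not tested.

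The regions beyond 2-fold were mostly short and weakly open. Their median length was 758 bp for those higher in C6FAE and 780 bp for those lower, against 1630 bp for the regions within 2-fold. Regions were split into 5 equal classes by length, and in the shortest class, 501 to 761 bp, 9.37% were higher and 13.5% lower. In the longest class, from 3046 bp upward, the shares were 0.137% and 0.151%. The level gave the same order, with 8.66% higher and 12.5% lower in the class of lowest mean RPKM and 0.659% and 0.782% in the class of highest. The SD of the difference over regions narrowed along with the shares, from 0.854 in the shortest class to 0.278 in the longest. Short regions hold few reads, and the part of counting error in these shares was not tested.

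**Figure D2:**
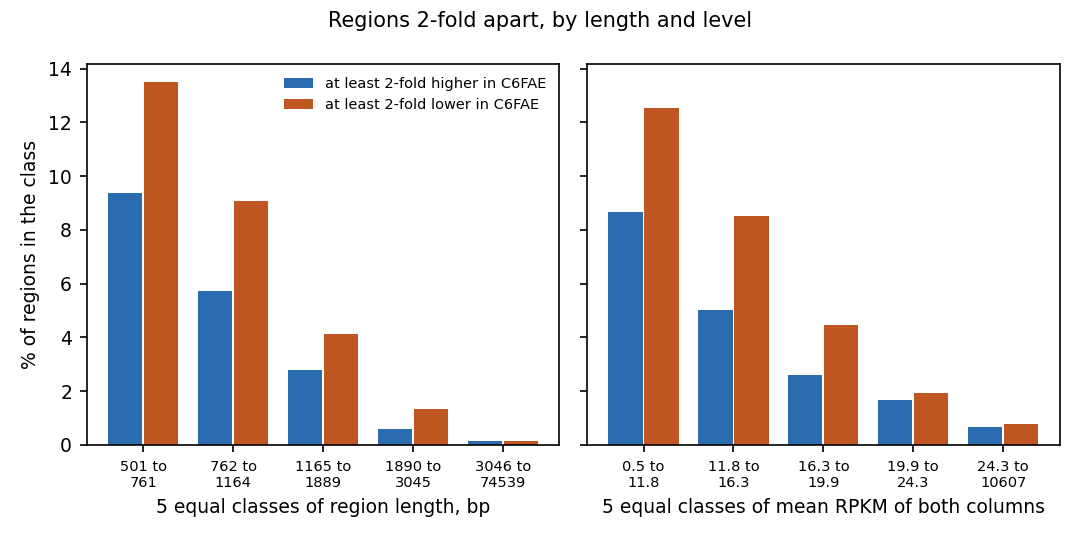
Percent of regions at least 2-fold higher or lower in C6FAE than in CFAE, as deposited, in 5 equal classes of region length (left, bp) and of mean RPKM of both columns (right). Both shares drop from the first to the last class, from 9.37% to 0.137% for higher regions by length.

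The difference was spread over the genome. On the 20 chromosomes with more than 10 regions, 3.00 to 4.38% of regions were at least 2-fold higher and 3.99 to 6.82% at least 2-fold lower in C6FAE, and the lower regions outnumbered the higher ones on 20 of 20. After centring they did so on 17 of 20. Regions close to one another leaned the same way. Of 553 higher regions with a neighbour within 10 kb, the nearest neighbour was also higher for 40 (7.23%) and lower for 28 (5.06%). Over all 15301 regions with such a neighbour, 3.66% of neighbours were higher and 5.08% lower. Of 773 lower regions, the neighbour was lower for 49 (6.34%) and higher for 26 (3.36%). Regions that are each other's nearest neighbour were counted from both sides, so these numbers may hold fewer separate pairs. The lean was small and concerned few regions, and it was not tested.

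The peak lists, which exist for each library, allowed the treatments to be set against the spread between libraries. Libraries of one treatment were no more alike than libraries of different treatments. The 2 C6FAE libraries shared 53.2% of their 20000 highest-scoring peaks, and the 2 CFAE libraries shared 55.6%. Between treatments, the first C6FAE library (replicate 1 in the labels) shared 57.5% and 61.3% with the first and second CFAE libraries, and the second C6FAE library shared 47.4% and 50.5%. The pair with the most peaks in common was thus a C6FAE with a CFAE library, and so was the pair with the fewest. The overlap by bases gave the same picture at its upper end, with 37.8% for the first C6FAE and the second CFAE library, 35.3% within C6FAE and 33.1% within CFAE. The libraries also differed in peak strength. The median fold enrichment over background of the 20000 peaks was 3.47 in the first C6FAE and 3.48 in the second CFAE library. These 2 shared the most peaks. The median was 2.86 in the second C6FAE and 2.97 in the first CFAE library, which shared the fewest. The part of peak strength in the sharing was not tested. With 2 libraries against 2, the smallest two-sided p that an exact permutation test can give is 0.333, so that test could not reach 0.05 for any value of the libraries.

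**Figure D3:**
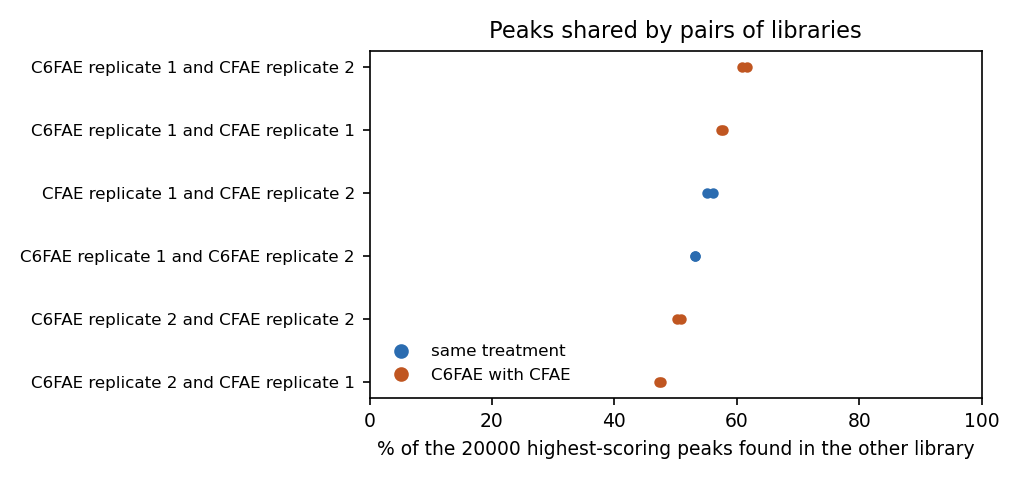
Percent of the 20000 highest-scoring peaks of a library that overlapped such a peak of a second library by at least 1 bp, for the 6 pairs of libraries, with 1 point for each direction. The pairs of one treatment, with means of 53.2 and 55.6%, lie between the C6FAE with CFAE pairs, whose means run from 47.4 to 61.3%.

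Few peaks separated the treatments in all 4 libraries. Merging the 4 lists of 20000 gave 41902 peaks, of which 7552 were in all 4 libraries and 24360 in 1 library only. Peaks in both C6FAE libraries and in neither CFAE library numbered 881. Peaks in both CFAE libraries and in neither C6FAE library numbered 1056. Groupings that cut across the treatments were as common: 1415 peaks were in the first C6FAE and the second CFAE library alone, and 1182 in the first C6FAE and the first CFAE library alone. The cross pairs with the second C6FAE library held 487 and 613 peaks. The number on the C6FAE and the CFAE side changed order with the length of the lists, since every listed peak gave 20394 for C6FAE and 15793 for CFAE, and the 5000 highest-scoring gave 386 and 355.

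A peak's recurrence in a further library likewise depended on which library was searched. Of 8469 peaks found in the first C6FAE library and not in the first CFAE library, 25.7% were found again in the second C6FAE library and 31.8% in the second CFAE library. The difference was −6.08 percentage points, with a 95% interval over peaks of −7.19 to −4.97. Chosen in the second C6FAE library, 17.5% were found in the first C6FAE and 13.5% in the first CFAE library, a difference of 3.93 points. For CFAE, 8523 peaks of its first library gave 18.6% in the second CFAE and 12.0% in the second C6FAE library, a difference of 6.54 points. Chosen in the second CFAE library, the difference was −3.59 points. Both signs occurred for both treatments. In each of these searches the larger share was found in the library whose 20000 peaks had the higher median fold enrichment. That was the first C6FAE or the second CFAE library, and the cause was not tested.

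At the level of the regions, a peak among the 20000 highest-scoring was present in both C6FAE libraries and neither CFAE library for 799 regions (2.19%). The converse pattern held for 957 regions (2.63%). Of the regions that were at least 2-fold higher in C6FAE, 118 (8.70%) had the first pattern. Of those at least 2-fold lower, 147 (7.15%) had the second. The merged columns and the peak lists come from the same reads, so these shares describe the regions and give no separate support. In 595 of the higher regions (43.8%) and 1006 of the lower regions (48.9%), none of the 4 libraries had a peak in its top 20000, against 30.3% of all regions. Only 3 higher and 5 lower regions had such a peak in all 4 libraries, as 20.5% of all regions did.

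With every listed peak, 280 regions (0.769%) had a peak in both C6FAE libraries and in neither CFAE library. Their merged RPKM was higher in C6FAE in 276, and at least 2-fold higher in 161. Their median RPKM was 11.8 in C6FAE and 4.72 in CFAE. The opposite list held 417 regions (1.14%), with CFAE higher in 409 and C6FAE at least 2-fold lower in 300. Their median RPKM was 4.72 in C6FAE and 13.1 in CFAE. The regions named next are the 10 with the largest difference on each side of these lists. They were picked by size, so their differences are a description.

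Among regions more open with compound 6, chr4:152388506-152389091 had an RPKM of 18.1 in C6FAE and 1.32 in CFAE, a difference of 3.04 on the log2(RPKM + 1) scale. The C6FAE libraries had peaks there with a fold enrichment over background of 2.65 and 1.78, and pileups of 4.37 and 2.00 tags. In the other treatments the RPKM was 14.1 in 6FAE, 15.6 in C6AE, 5.15 in AE, 16.8 in Basal and 10.8 in Control. CFAE was thus the treatment that stood apart, and 4 of the 5 other treatments were closer to C6FAE. At chr14:32359705-32360362 the RPKM was 17.9 in C6FAE and 1.36 in CFAE, a difference of 3.00, and between 2.75 in 6FAE and 7.37 in AE elsewhere. There C6FAE was the highest and CFAE the lowest of the 7 treatments. At chr12:70673035-70673784 the RPKM was 26.0 in C6FAE, 2.72 in CFAE and at most 10.4 in the others. At chr17:28069131-28069729 it was 24.2 in C6FAE, 2.49 in CFAE and at most 10.9 in the others. These 2 regions had the highest C6FAE levels of the 10.

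The 10 regions were 564 to 1127 bp long, with an RPKM of 12.7 to 26.0 in C6FAE and of 1.32 to 2.72 in CFAE. Their log2 differences ran from 2.52 to 3.04. After centring, CFAE was the lowest of the 7 treatments in 10 of 10, and C6FAE the highest in 4. The remaining members were chr11:118591906-118592469, chr15:34192033-34192598, chr1:194203761-194204499, chr9:72731159-72732285, chr1:35978671-35979319 and chr2:166294737-166295366. At the first of these, Control had a higher RPKM, 20.9, than C6FAE, 17.6. At chr1:35978671-35979319 C6AE was the highest, at 24.0 against 12.9 in C6FAE and 1.38 in CFAE. At chr9:72731159-72732285 all 3 treatments with compound 6 were above all 4 without it, with 14.4 in C6FAE, 10.7 in 6FAE and 9.49 in C6AE against at most 7.45, and this was the case for 1 of the 10 regions in RPKM and for 2 on the centred scale. The choice of the 10 regions had fixed C6FAE above CFAE, and the full order was not counted over all regions. On the centred scale, 6FAE and C6AE were both above AE, Basal and Control in 13.7% of all regions. At none of the 10 did a pileup in a C6FAE library pass 5.75 tags.

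Among regions less open with compound 6, chr5:4326970-4327581 had an RPKM of 1.61 in C6FAE and 29.5 in CFAE, a difference of −3.55. The CFAE libraries had peaks there with fold enrichments of 2.32 and 3.83, and pileups of 3.11 and 6.20 tags. The other treatments lay between, from 9.47 in Control to 20.3 in AE. At chr15:62165568-62166350 the RPKM was 1.45 in C6FAE and 26.4 in CFAE, a difference of −3.49. It was 36.3 in Control, 30.2 in AE and 24.3 in Basal, and 8.07 in 6FAE and 7.76 in C6AE. At this region all 3 treatments that contained compound 6 were therefore below all 4 that did not. At chr4:26737944-26738815 the order was the same, with 0.260 in C6FAE, 2.30 in 6FAE and 5.74 in C6AE, against 13.4 in CFAE, 13.97 in AE, 11.6 in Basal and 16.1 in Control. At chr15:54263862-54264446 it was so too, with 0.938 in C6FAE, 0.794 in 6FAE and 1.202 in C6AE, against 14.3 in CFAE, 1.90 in AE, 3.07 in Basal and 7.80 in Control. In RPKM this order held for 3 of the 10 regions. On the centred scale it also held for 3, with chr13:111731668-111732299 in place of chr15:54263862-54264446. These orders were noticed after the values were seen. The choice of the 10 regions had fixed C6FAE below CFAE, and the full order was not counted over all regions. On the centred scale, 6FAE and C6AE were both below AE, Basal and Control in 12.2% of all regions.

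The other regions did not have this order in RPKM. At chr17:82029608-82030175 CFAE had the highest RPKM, 40.1, and Control the lowest, 1.01, with 4.22 in C6FAE. At chr18:81937874-81938385 the level was 23.5 in C6AE and 21.1 in CFAE, with 1.60 in C6FAE. The other members were chr18:9039084-9039692, chr3:147543764-147544406, chr10:59279512-59280106 and chr13:111731668-111732299. The 10 regions were 512 to 872 bp long and ran from 0.260 to 4.22 RPKM in C6FAE and from 13.4 to 40.1 in CFAE. After centring C6FAE was the lowest of the 7 treatments in 9 of 10, and CFAE the highest in 6.

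The regions of strongest signal differed by 1.05- to 1.19-fold. The regions of highest mean RPKM were chrM:1-6468, with 11408 in C6FAE and 9806 in CFAE, chrM:10825-16299, with 8765 and 7355, and chr2:98502299-98508122, with 3183 and 3031. All 3 were high in every treatment, and the first and second lie on the mitochondrial genome, which carries no nucleosomes. At the 2-fold threshold, chr19:56075381-56076198 and chr18:62886603-62890666 lay just inside on the higher side, both at 1.00, and chr17:32057278-32057901 and chr14:25630810-25631474 just outside. On the lower side, chr18:34999851-35000707 and chr3:145347173-145349309 lay just inside, at −1.0007 and −1.0003, and chr4:14769578-14770872 and chr9:42123928-42124925 just outside. The regions just inside had the higher levels, at 21.4 and 24.5 RPKM in C6FAE against 13.1 and 15.6 just outside on the higher side, and at 32.6 and 31.9 RPKM in CFAE against 13.3 and 14.8 on the lower side.

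The 5 treatments that the comparison did not use show how the selected regions behaved elsewhere. Regions higher in C6FAE than in CFAE had a median RPKM of 18.1 and 6.41 in these, and of 8.97 in 6FAE, 8.004 in C6AE, 7.36 in AE, 8.21 in Basal and 6.83 in Control. The medians of all regions in the same 5 treatments were 14.3, 12.2, 16.4, 14.6 and 11.6. In the treatments outside the comparison, the higher regions were thus weakly open throughout. Regions lower in C6FAE had a median RPKM of 6.54 in C6FAE, 18.6 in CFAE, 10.6 in 6FAE, 9.19 in C6AE, 12.7 in AE, 11.9 in Basal and 8.54 in Control. These too lay below the median of all regions in each of the 5 treatments.

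**Figure D4:**
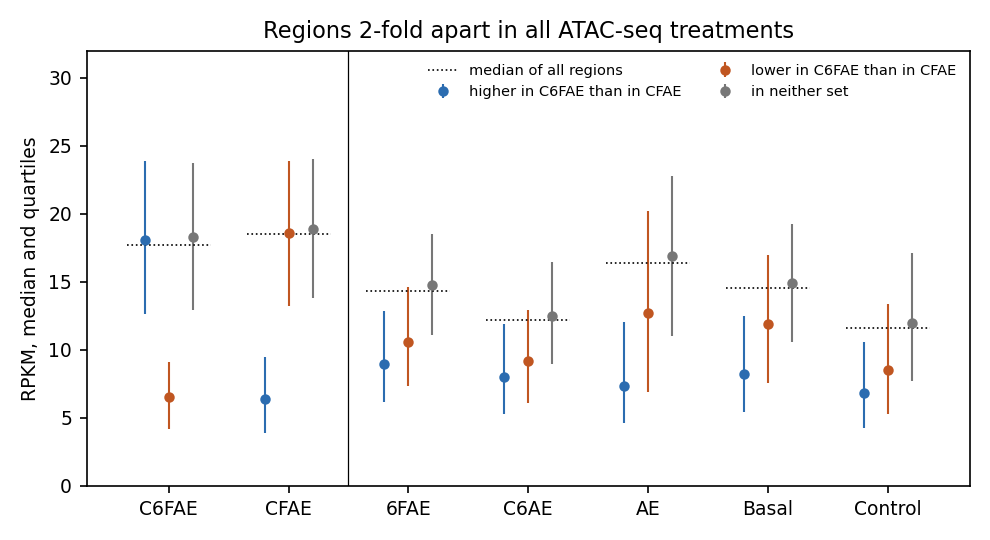
Median RPKM with quartiles (bars) of the regions at least 2-fold higher in C6FAE than in CFAE (1357), at least 2-fold lower (2056) and in neither set, by treatment, with dotted lines at the median of all regions. Left of the vertical line are the columns that chose the regions. In the 5 other treatments both sets lie below the dotted lines.

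Treatments with and without compound 6 differed slightly in these regions. On the centred scale, the mean of 6FAE and C6AE minus the mean of AE, Basal and Control had a median of 0.23 in the higher regions, −0.07 in the lower regions and −0.0007 over all regions. It was above 0 in 63.7% of the higher, 45.5% of the lower and 49.9% of all regions. Both treatments with compound 6 were above all 3 without it in 272 of the higher regions (20.04%), against 13.7% of all regions. Both were below all 3 in 298 of the lower regions (14.5%), against 12.2% of all. The same lean was seen within classes of length: in the middle class the median was 0.32 for 202 higher regions, −0.12 for 301 lower regions and 0.02 for all. In the shortest class it was 0.17, −0.01 and 0.03. 6FAE and C6AE also differ from AE, Basal and Control in CHIR99021 or Forskolin, and from some of them in other components, so compound 6 and these cannot be told apart here. Each treatment is 1 merged column, and the lean has no replicate error.

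The peak lists of the single libraries did not separate those treatments. A top-20000 peak lay in 5.45 to 11.0% of the higher regions in the 4 libraries of 6FAE and C6AE, and in 5.08 to 9.14% in the 6 libraries of AE, Basal and Control. For the lower regions the ranges were 5.64 to 18.4% and 7.34 to 20.5%. Over all regions the shares were 21.0 to 46.7% and 23.7 to 38.7%, so the libraries themselves differed. Both pairs of ranges overlapped. In the libraries of the comparison itself the higher regions had such a peak in 39.6 and 27.045% (C6FAE) and in 2.51 and 1.77% (CFAE), and the lower regions in 2.72 and 1.56% and in 26.6 and 33.7%. Over all regions the shares were 47.5 and 35.1% in the C6FAE and 40.7 and 45.1% in the CFAE libraries, above those of the chosen regions also in the treatment where these were more open.

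**Figure D5:**
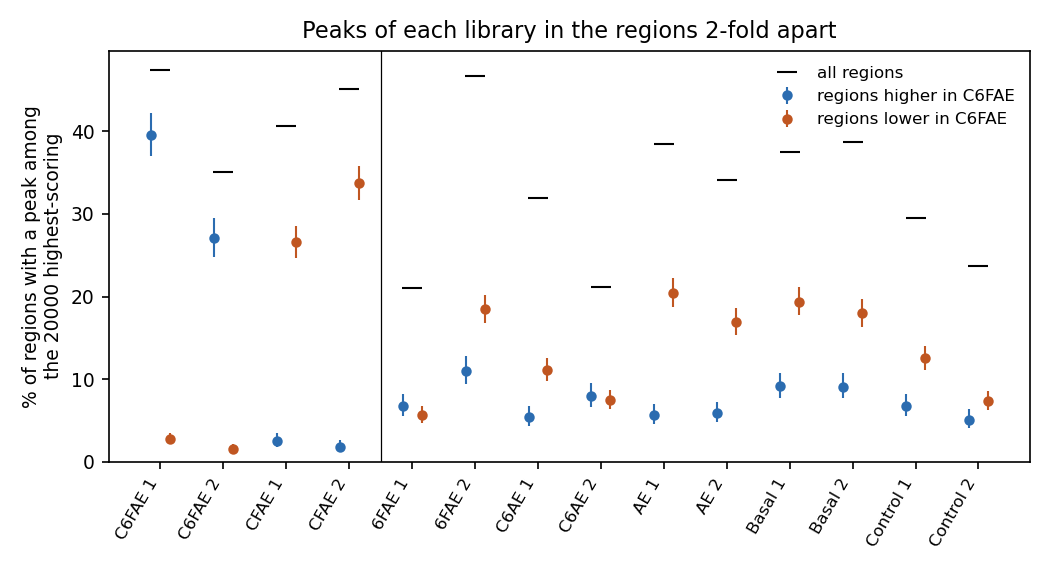
Percent of the regions at least 2-fold higher or lower in C6FAE than in CFAE that contained 1 of the 20000 highest-scoring peaks of each of 14 ATAC-seq libraries, with 95% Wilson intervals over regions. Dashes give all regions. Right of the vertical line, in libraries that did not choose the regions, the higher regions lie between 5.08 and 11.0%.

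Position in the order of the 7 treatments was also recorded, on the centred scale. C6FAE was the highest of all in 724 of the higher regions (53.4%), against 16.0% of all regions, and CFAE the lowest in 639 (47.1%), against 12.8%. In the lower regions C6FAE was the lowest in 1273 (61.9%), against 16.2% of all, and CFAE the highest in 652 (31.7%), against 10.6%. The regions beyond 2-fold thus held some in which C6FAE stood at one end of the 7 treatments and some in which CFAE did. The rule used both columns, so these shares are a description.

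ChIP-seq of H3K4me3, a mark of active promoters, and of H3K27me3, a mark of Polycomb-repressed chromatin, had 1 library for each mark that could be assigned to C6FAE and 1 to CFAE. Another 3 ChIP-seq samples carry the treatment label C6FAE but are titled as control, and they were left out. Regions beyond 2-fold rarely carried H3K4me3: 58 of the higher regions (4.27%) and 53 of the lower (2.58%) overlapped a region of the H3K4me3 table, against 31.2% of all regions. H3K27me3 regions overlapped 131 of the higher regions (9.65%), close to the 9.37% of all. They overlapped a smaller share of the lower regions, 142 (6.91%), with a Wilson interval over regions of 5.89 to 8.08%. Length was not held fixed in this comparison.

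The H3K4me3 table had a median RPKM of 11.4 in C6FAE and 15.7 in CFAE over 12566 regions, and the H3K4me3 libraries held 3296306 and 4855116 tags. At the accessible regions the median log2 difference, C6FAE minus CFAE, was −0.27 in the higher, −0.43 in the lower and −0.43 in all regions that overlap. With the columns centred, these medians were 0.16 (95% interval over regions of −0.02 to 0.25), −0.002 and −0.009, so the direction in the higher regions turned with the scaling. For H3K27me3 the medians were −0.17, −0.10 and −0.16 as deposited and −0.07, −0.005 and −0.06 after centring, with libraries of 5919506 and 3294779 tags. With 1 assigned library for each mark and treatment, no test was made.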

How the data were processed

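ATAC-seq libraries were made from 50000 cells per reaction. Per the labels, the submitters' processing notes name Bowtie2, MACS2, deepTools 3.1.0 and mm9. The authors deposited tables of RPKM averaged over the bins of a region, with 1 merged column for each treatment. The authors called peaks in each library, and per the file headers MACS 2.1.2 was run without local background and extended tags to 250 bp, keeping peaks with p up to 0.05. ATAC-seq peaks were called in broad mode and without a control library. The deposited lists give the pileup (a coverage signal), the −log10 p, a −log10 q that the headers call not calculated, and the fold enrichment, a ratio over the modelled background. The control columns of the ChIP-seq tables, 2 in all, could be given to no sample and were left out.

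Differences were taken on log2(RPKM + 1), with a pseudocount of 1, as deposited and after centring each column on its median, and were counted beyond 2-fold (1 on the log2 scale). Peaks overlapped when they had at least 1 bp in common. The 20000 peaks of highest −log10 p stood for each library. A region's pileup and fold enrichment are the highest of its peaks. Intervals over regions are 95% Wilson or order-statistic intervals. The interval for recurrence is a 95% normal interval of the mean difference over peaks. They cover only the number of regions or peaks, not the spread between libraries. Molecules were not tagged before PCR, so the reads are not all independent. No test over regions was planned or made, because the columns are merged. Named regions were the 10 largest differences on each side among regions with a listed peak in both libraries of the higher treatment and neither of the other, the 3 of highest mean RPKM, and 2 on either side of each threshold. Regions and lists were chosen with earlier results of these data known. Gene lists were not used, because positions were not joined to genes. The alternatives changed the pseudocount, scaling, filter, threshold, peak lists and libraries. The code for counting was checked on simulated data with less noise than these data, which does not show how reliable the counts are here. Computing was done in Python 3.11.15 (scipy 1.17.1, pandas 2.3.3, numpy 2.4.6), and figures were drawn with matplotlib 3.10.9.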

Additional observations from a re-analysis of the deposited data

How the results depend on the processing

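Of 71 recomputed values, 27 were within the limits set, 36 moved and 8 turned sign. The limits were wide for counts. Peaks in both CFAE and neither C6FAE libraries went from 1056 to 1572 without C6FAE replicate 2, still within them. No paired analysis was possible because the RPKM columns are merged over replicates and the peak comparisons come from no test. Counts moved by construction with a 1.5-fold threshold, to 3899 higher and 5589 lower regions (centred, 4514 and 4875), with low RPKM filtered, to 610 and 934 (684 and 834), and with a pseudocount of 10, to 144 and 241 (173 and 188). The share that was higher came to 37.4% with a pseudocount of 10 and 50.6% after quantile normalization. The median difference over all regions was −0.0320 with a pseudocount of 10, −0.0319 with low RPKM filtered, −0.0537 when centred on the most open regions and 0.00298 after quantile normalization. Peaks in both C6FAE and neither CFAE libraries numbered 20394 with every listed peak, 386 with the 5000 of highest score and 25 with a −log10 q minimum of 5. The converse numbers were 15793, 355 and 25. Leaving out 1 library drops 1 condition, and these counts then ran from 1683 (without CFAE replicate 1) to 8604 (without C6FAE replicate 1) and from 1572 (without C6FAE replicate 2) to 7496 (without CFAE replicate 2). Without C6FAE replicate 2 the first count was 5776, without CFAE replicate 2 it was 2131, and the second count was 2879 without C6FAE replicate 1 and 6487 without CFAE replicate 1. The recurrence of C6FAE peaks, own minus other treatment, was 23.2 points with every listed peak, 0.866 with the 5000 of highest score, 3.93 chosen in replicate 2 and −4.02 chosen against the library of the other number. For CFAE peaks these were −22.4, 4.15, −3.59 and −1.51, and the cause was not tested. With every listed peak, the lists searched held 477218 peaks (C6FAE replicate 2) and 191181 (CFAE replicate 2). With the ChIP-seq columns centred, H3K4me3 differed by a median of 0.155 in the higher and −0.00213 in the lower regions, and H3K27me3 by −0.0740 and −0.00485. A pseudocount of 0.1 gave −0.228 for H3K27me3 in the higher regions.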
